A study of Homo sapiens with 4 samples.

Results

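The enzymes that build purine and pyrimidine nucleotides, and the folate enzymes that hand them carbon, were followed in 2 human leukemia lines treated with a BCR-ABL1 inhibitor. BV-173, from chronic myeloid leukemia in lymphoid blast crisis, and SUP-B15, from acute lymphoblastic leukemia, are established Philadelphia-positive lines, in which the BCR-ABL1 fusion kinase drives growth. Each was profiled untreated and under STI571 (imatinib), which inhibits the kinase, at 10 μmol/l for 16 h. Every one of these 4 groups is a single array, so a response in a single line has no replicate check. Nothing in the labels says what the untreated cultures received in place of the drug or when they were harvested. The set was given as 32 gene symbols, and its members are all probe sets that the platform annotation gives to 1 of them alone. There were 52 such probe sets for 30 genes, of 22277 probe sets in all. MTHFD1L was not analysed here, and the probe set of NME2 also carries the symbol of a read-through transcript and was not used. A gene was tested where a probe set reached its array's median signal on at least 1 array, which held for 29 of the 30. The exception was SHMT1, the cytosolic serine hydroxymethyltransferase, with signals of 42.2 and 26.1 in untreated and treated BV-173 and 55.3 and 34.8 in SUP-B15; a second SHMT1 probe set shares the symbol of a microRNA and was left out.

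Purines are assembled on a ribose phosphate, PRPP, step by step until inosine monophosphate (IMP) is reached, from which AMP and GMP are made. Pyrimidines are built as a ring first and joined to PRPP afterwards. Folate carries the single carbon units, taken mostly from serine, that enter the purine ring and turn dUMP into dTMP, and ribonucleotide reductase supplies the deoxynucleotides for DNA. Proliferating lymphoid cells draw heavily on these routes, and thiopurines, methotrexate and cytarabine, all used against lymphoblastic leukemia, act on them or pass through them.

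Array quality differed little. The median signal was 95.5 to 115 and the 3' to 5' ratio of the GAPDH controls 1.12 to 1.20. Treated BV-173 stood apart in the 18S ribosomal RNA controls, with a mean of 2817 against 1513 to 1596 on the others; the part of this in the results was not tested, and the SUP-B15 values do not rest on that array. Of 8 measured markers of B cell precursors, 7 reached the median on all arrays, among them PAX5, CD79A and VPREB1. The common acute leukemia antigen gene MME was the other, at 7.2 and 18.3 in BV-173 by its brightest probe set over all arrays and at 31.3 and 81.4 by a second one. Of the markers of other cells, the 5 for T cells did not reach the median on any array, nor did CD14, LYZ and ELANE of myeloid cells, GNLY and NCR1 of NK cells or SDC1 of plasma cells. NKG7 of NK cells was above it on all arrays (147 to 392), and MPO of myeloid cells on both SUP-B15 arrays (208 and 174). The others were above the median on 1 array each. These were TNFRSF17 of plasma cells in treated SUP-B15 (208.5), and CSF1R of myeloid cells (156.4) and PRDM1 of plasma cells (196.4) in untreated SUP-B15. In BV-173 they were KLRD1 of NK cells, treated (144.3), and HBB of erythroid cells, untreated (123.3). AHSP, also erythroid, did not reach the median on any array. Their part in the results was not tested.

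With STI571, most of these genes had lower signals in both lines, and 3 were called: PAICS of purine synthesis, CAD of pyrimidine synthesis and the nucleoside diphosphate kinase NME1. Of the 29 tested, 21 were lower in both lines (72.4%), against 26.5% of all 7916 genes, and 1 was higher in both, against 28.9%. The 21 include PRPS2, whose SUP-B15 signals are too dim for a response to be read; without it, a count chosen after seeing the data, 20 of 28 were lower in both (71.4%). Among the 3958 genes above the median level, where 26 of the members lie, the share lower in both was 29.3%. Taken line by line, 24 of the 29 members were lower in BV-173 (46.4% of all genes) and 25 in SUP-B15 (51.3% of all genes). The median change of the members, on the log2(signal + 24.5) scale used for every change here, was −0.32 for BV-173 and −0.39 for SUP-B15, beside 0.05 and −0.01 over all genes. In RNA from whole cultures, fewer cells of a kind, such as cells in S phase, and less RNA per cell cannot be told apart. The shifts were small: 0 members were 2-fold lower in BV-173, where 4.65% of all genes were, and 1 (NME1) was in SUP-B15, where 5.7% were. Members 2-fold higher numbered 0 in either line, beside 6.91% of all genes in BV-173 and 4.13% in SUP-B15.

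The mean response of both lines was tested with limma across all 7916 genes, with the cell line as a block and Benjamini-Hochberg adjustment. It called 3 of 29 members lower (10.3%; 1.63% of all genes) and 0 higher (1.43% of all genes). At an unadjusted p under 0.05, 10 members were lower (6.09% of all genes) and 0 higher (6.28% of all genes). The fit has 1 residual degree of freedom and takes each gene's error from the trend of spread over brightness, so the SEs of the members, 0.20 to 0.41 with a median of 0.21, are not their own spread. Without that trend, or without the block, 0 members were called.

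**Figure D1:**
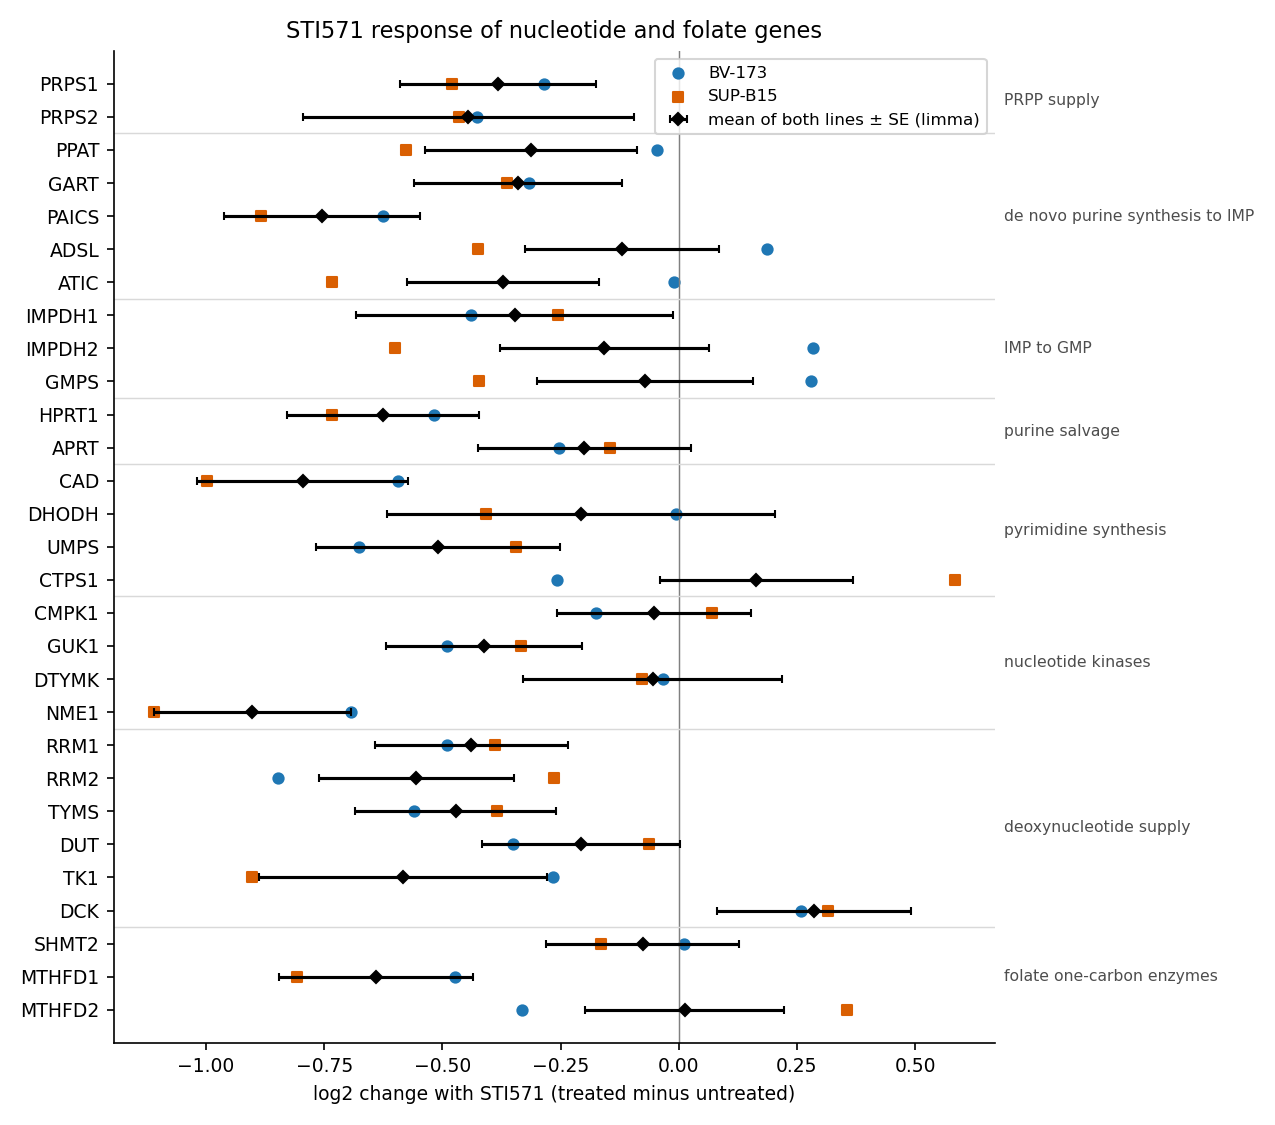
Log2 change of each tested gene with STI571 in BV-173 (circles) and SUP-B15 (squares), grouped by role, with the mean of both lines and its SE from limma (diamonds and bars). Most points lie left of 0; NME1, CAD and PAICS have the lowest means, at −0.90, −0.80 and −0.75, and DCK is the gene to the right of 0 in both lines.

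NME1 encodes a kinase that turns nucleoside diphosphates into triphosphates. Its signal went in BV-173 from 10395.5 to 6418, in SUP-B15 from 7901 to 3646, so each treated array lay below both untreated ones. The log2 changes were −0.69 and −1.11, with a mean of −0.90 (SE 0.21, limma adjusted p = 0.00134). CAD, which carries the first 3 activities of pyrimidine synthesis in 1 protein, went in BV-173 from 2286 to 1507, in SUP-B15 from 872 to 424. Treated BV-173 thus stayed above untreated SUP-B15. Its changes were −0.59 and −1.0, with a mean of −0.80 (SE 0.22, limma adjusted p = 0.0181). PAICS, a bifunctional enzyme of the middle of the purine route, went from 9154 to 5924 and from 6640.2 to 3588.5. Both treated arrays were below both untreated ones, and the mean change was −0.75 (SE 0.21, limma adjusted p = 0.0137). For BV-173 a second PAICS probe set read −0.50, and for SUP-B15 −1.16. Only the NME1 call held under every scaling, filter and probe set choice tried. In the fit with probe sets averaged for every gene, CAD (limma adjusted p = 0.0587) and PAICS (0.0765) were not called. CAD has no other probe set, so its mean change stayed at −0.80, and that of PAICS was −0.76. That fit called 61 of all genes lower in place of 129. A common median ended that of CAD (0.13), and gene-specific probe sets alone that of PAICS (0.879), for which they leave a dim probe set with signals no higher than 110.5.

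The other genes on the way to IMP did not pass the test. PPAT, the amidotransferase that commits PRPP to purine synthesis, went in BV-173 from 1205 to 1166, in SUP-B15 from 1124 to 745. GART, which carries 3 activities of the route, had changes of −0.32 and −0.36, and 4 of its 5 probe sets were lower in both lines. ATIC, which closes the ring, was level in BV-173 (6352 and 6308) and lower in SUP-B15 (2574 and 1538), with changes of −0.01 and −0.73 (limma adjusted p = 0.471). ADSL, the lyase that acts both here and on the way to AMP, was higher in BV-173 (0.19) and lower in SUP-B15 (−0.42), and a second probe set read 0.35 and −0.36.

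PPAT and PAICS lie head to head on chromosome 4 and share a promoter region, although PAICS was called and PPAT was not. The RefSeq start sites (GRCh38.p14) are 136 bases apart. The stretch between them, on the plus strand, is shown because both genes are read outward from it, PPAT to the left and PAICS to the right.
PPAT to PAICS, chr4:56435616-56435751: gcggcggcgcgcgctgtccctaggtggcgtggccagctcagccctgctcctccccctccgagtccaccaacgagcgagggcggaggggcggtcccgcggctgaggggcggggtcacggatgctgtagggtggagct

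The palindrome CACGTG, the core of the E-box that MYC and related factors bind, was searched in windows from 250 bases before to 50 bases after each RefSeq start. Among members that were tested, 7 of 38 windows (18.4%) held it, from 7 of 26 genes with a window, against 7.26% of all 35116 windows and 9.65% of the windows of genes tested. PPAT and PAICS share 1 of these sites. With the members that were not tested the count is 10 of 46 windows (21.7%), but the 3 more are overlapping windows over a single site of MTHFD1L. Each stretch below holds 30 bases on the gene's own strand with the E-box in capitals. Counted from the RefSeq start, with minus for bases before it, the E-box of NME1 begins at 35, that of PAICS at 41 and that of MTHFD1 at −15. The PAICS match begins at position 56435792 of chromosome 4, and the same bases lie at −182 from the start of PPAT. ATIC has a match at −46 and another at 30. DCK, the member higher in both lines, and DHODH carry it at −116 and −159.
NME1, chr17:51153579-51153608: caagtgctgcgaacCACGTGggtcccgggc
PAICS, chr4:56435772-56435801: ctggaaagctgtatttgctgCACGTGgaaa
MTHFD1, chr14:64388326-64388355: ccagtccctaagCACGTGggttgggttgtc
ATIC, chr2:215312001-215312030: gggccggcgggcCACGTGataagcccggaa
DCK, chr4:70993521-70993550: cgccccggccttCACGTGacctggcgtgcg
DHODH, chr16:72008573-72008602: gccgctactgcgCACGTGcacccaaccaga

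CAD held no CACGTG in its window, which says nothing of bases outside it. The E2F site (TTTCCCGC, TTTGGCGC, TTTCGCGC or TTTGCCGC, either strand) was in 10.9% of the 46 member windows, in DCK, DUT, GART, PRPS2 and TYMS. These 46 include windows of members that were not tested. The share was 3.31% of all windows and 5.08% of the windows of genes tested. The CCAAT box (CCAAT, either strand) was about as common among the members (39.1%) as over all windows (34.61%). A match is a description of these letters and no evidence of binding. MYC itself was level in BV-173 at 25862 and 26044, and went from 8187 to 2805 in SUP-B15. Its mean change of −0.76 was called by limma (adjusted p = 0.0201), but not in the fits with no filter (0.114) or with probe sets averaged (0.223). MYC has no other probe set, and its mean change was the same in those fits. Meanwhile 24 of the 29 members were lower in BV-173 (46.4% of all genes) and 25 in SUP-B15 (51.3% of all genes). The part of MYC in these values was not tested. E2F1, a factor that drives S phase genes, went in BV-173 from 236 to 47.9, in SUP-B15 from 269 to 248 (limma adjusted p = 0.248).

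PRPP itself is made by PRPS1 and PRPS2, closely related synthetases. PRPS1 gave 2592, 2123, 1991 and 1420.3 in untreated and treated BV-173 and untreated and treated SUP-B15. Its changes were −0.28 and −0.48 (limma adjusted p = 0.466). PRPS2 was at 2420 and 1795 in BV-173 but at 14.4 and 3.7 in SUP-B15, below the 25th percentile of those arrays (27.3 and 25.6). A response in SUP-B15 cannot be read at that level.

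Of the genes that lead from IMP to GMP, IMPDH2 and GMPS had changes of opposite sign in the lines and were not called. IMPDH2, the main IMP dehydrogenase of dividing lymphocytes, went in BV-173 from 13773 to 16775, in SUP-B15 from 14147 to 9327. GMPS, the GMP synthetase, went from 1837 to 2235 and from 494 to 362. The changes were 0.28 and −0.60 for IMPDH2, and 0.28 and −0.42 for GMPS; with ADSL these 3 differ in sign between the lines under the deposited scaling, quantile normalization and a common median. The isoenzyme IMPDH1 was lower in both, from 386 to 278 and from 230 to 189. For salvage, HPRT1, which rescues hypoxanthine and guanine and activates thiopurines, went in BV-173 from 6584.5 to 4590.4, in SUP-B15 from 4438 to 2660, a mean change of −0.63 just short of a call (limma adjusted p = 0.0636); it was called with the filter at the 75th percentile (0.0353). APRT, its counterpart for adenine, had −0.25 and −0.15, but its second probe set read 0.14 in BV-173 and −0.86 in SUP-B15.

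Of the pyrimidine genes after CAD, 0 were called. DHODH, the mitochondrial dehydrogenase after CAD, was dim, with signals of 129 to 209 and changes of −0.01 and −0.41, and its 3 probe sets did not share a direction. UMPS, which completes UMP, had −0.68 and −0.34 (limma adjusted p = 0.399). CTPS1, which makes CTP and on which lymphocyte expansion depends, went in BV-173 from 1924 to 1606, in SUP-B15 from 3370.1 to 5066. Its treated SUP-B15 signal was the highest of the 4 arrays. The changes were −0.26 and 0.58 and the mean 0.16 (limma adjusted p = 0.863). Of the other nucleotide kinases, GUK1, which phosphorylates GMP and activated thiopurines, had −0.49 and −0.33. A second, dimmer GUK1 probe set read −1.04 and −2.45, and with probe sets averaged GUK1 was called lower (−1.08, limma adjusted p = 0.0347). CMPK1 and DTYMK, the kinases of CMP and dTMP, had changes between −0.17 and 0.07.

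The deoxynucleotide genes were lower in both lines for 5 of 6 (26.5% of all genes), with 0 called (1.63% of all genes called lower). RRM1 and RRM2, the large and small subunits of ribonucleotide reductase, had mean changes of −0.44 and −0.56. RRM2 went in BV-173 from 2650 to 1462, in SUP-B15 from 2900.1 to 2413 (limma adjusted p = 0.135), whereas its second probe set had the larger change in SUP-B15 (−0.28 and −0.56). TYMS, the thymidylate synthase blocked by antifolates, went from 11856 to 8037 and from 9808 to 7510 (limma adjusted p = 0.295). TK1, the thymidine kinase of S phase, went from 517 to 426 and from 324 to 162, with changes of −0.27 and −0.90. DUT, which clears dUTP, had −0.35 and −0.06. DCK, which phosphorylates deoxycytidine and activates cytarabine, was the exception: BV-173 gave 3478.5 untreated and 4164 treated, SUP-B15 6133 and 7638, with changes of 0.26 and 0.32 (limma adjusted p = 0.671).

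Of the 3 folate enzymes tested, 0 were called, and MTHFD1 came closest. MTHFD1, the trifunctional enzyme of the cytosol that supplies formyl groups to the purine ring, went in BV-173 from 5729 to 4122, in SUP-B15 from 1445 to 815. The mean change was −0.64 (SE 0.21, limma adjusted p = 0.0572), and it was called with a pseudocount of 1 (0.0454), with the filter at the 75th percentile (0.0299) and with gene-specific probe sets (0.0475). The mitochondrial enzymes SHMT2 and MTHFD2, which draw the carbon from serine and oxidise it, were not called. SHMT2 was level, at 5703 and 5750 on the BV-173 arrays and 3953 and 3527 on those of SUP-B15. MTHFD2 went in BV-173 from 10132 to 8049, in SUP-B15 from 6452 to 8266, changes of −0.33 and 0.36. A difference between the compartments was not tested.

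**Figure D2:**
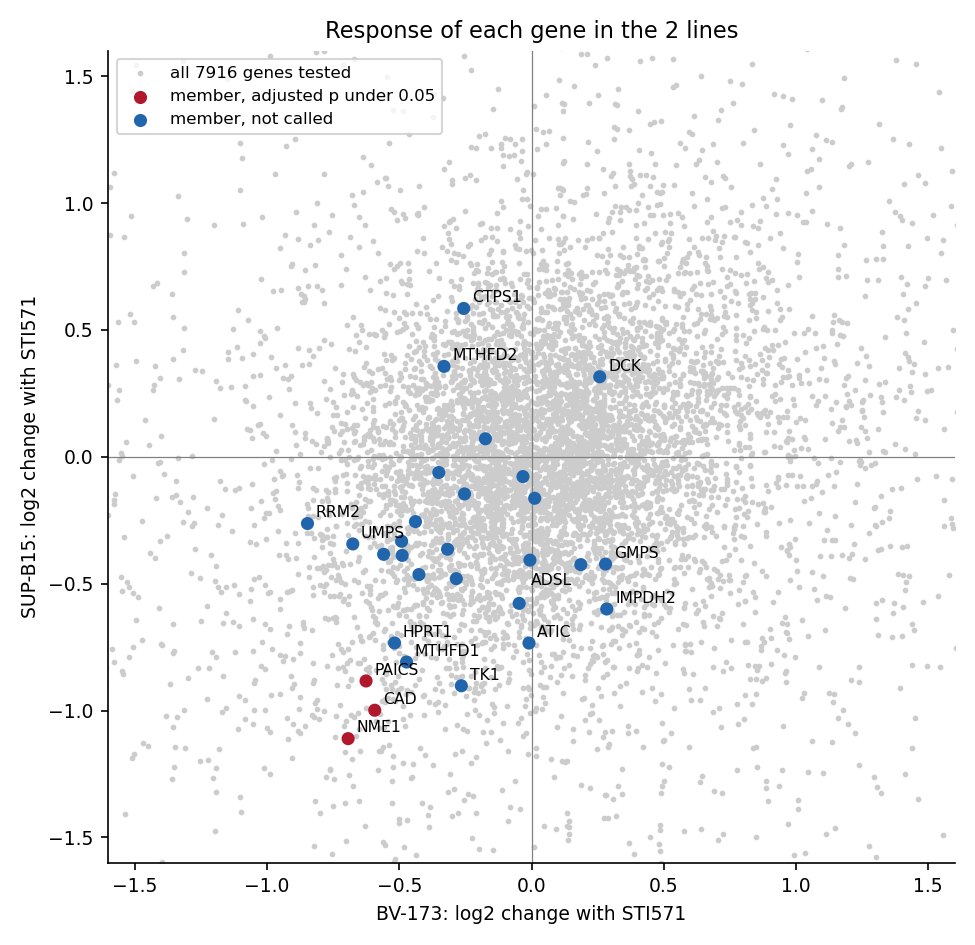
Log2 change with STI571 in BV-173 (horizontal) and SUP-B15 (vertical) for all 7916 genes (grey; 544 lie beyond the axes, which end at 1.6) and the 29 members (blue, or red where limma's adjusted p was under 0.05). The members crowd the lower left, while CTPS1 and MTHFD2 lie upper left and IMPDH2, GMPS and ADSL lower right.

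Across the 29 members the changes of the lines correlated with r = 0.27, and across all genes with r = 0.14; these are descriptions, since genes of 1 pair of arrays share its errors. Of the members, 7 had opposite signs in the lines, a smaller share (24.1%) than of all genes (44.5%). ADSL, IMPDH2, GMPS and SHMT2 were higher in BV-173 and lower in SUP-B15, and CTPS1, CMPK1 and MTHFD2 the reverse. No difference between the responses could be tested with 1 array per group. Of the 14 members with several probe sets above the filter, 11 had all of them on the same side of 0 on average, and DHODH, TYMS and SHMT2 did not.

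More of these genes were called between the lines than for the treatment, most of them with higher signals in BV-173. The difference was read from the same limma fit, in which each line has 1 untreated and 1 treated array. Its p-values too take each gene's error from the trend over brightness, not from the spread between that gene's own arrays. They say nothing of other cultures of these lines. It called 12 members lower in SUP-B15 (41.4%) and 3 higher (10.3%), where 14.5% of all genes were called in each direction. Of the members, 20 were lower in SUP-B15 both untreated and treated (38.2% of all genes). Both the 12 and the 20 include PRPS2, which passed the filter only through BV-173. The median difference of the members was −0.47 on the log2 scale, beside −0.03 over all genes. A common median moves the latter to −0.15 and the former to −0.60.

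**Figure D3:**
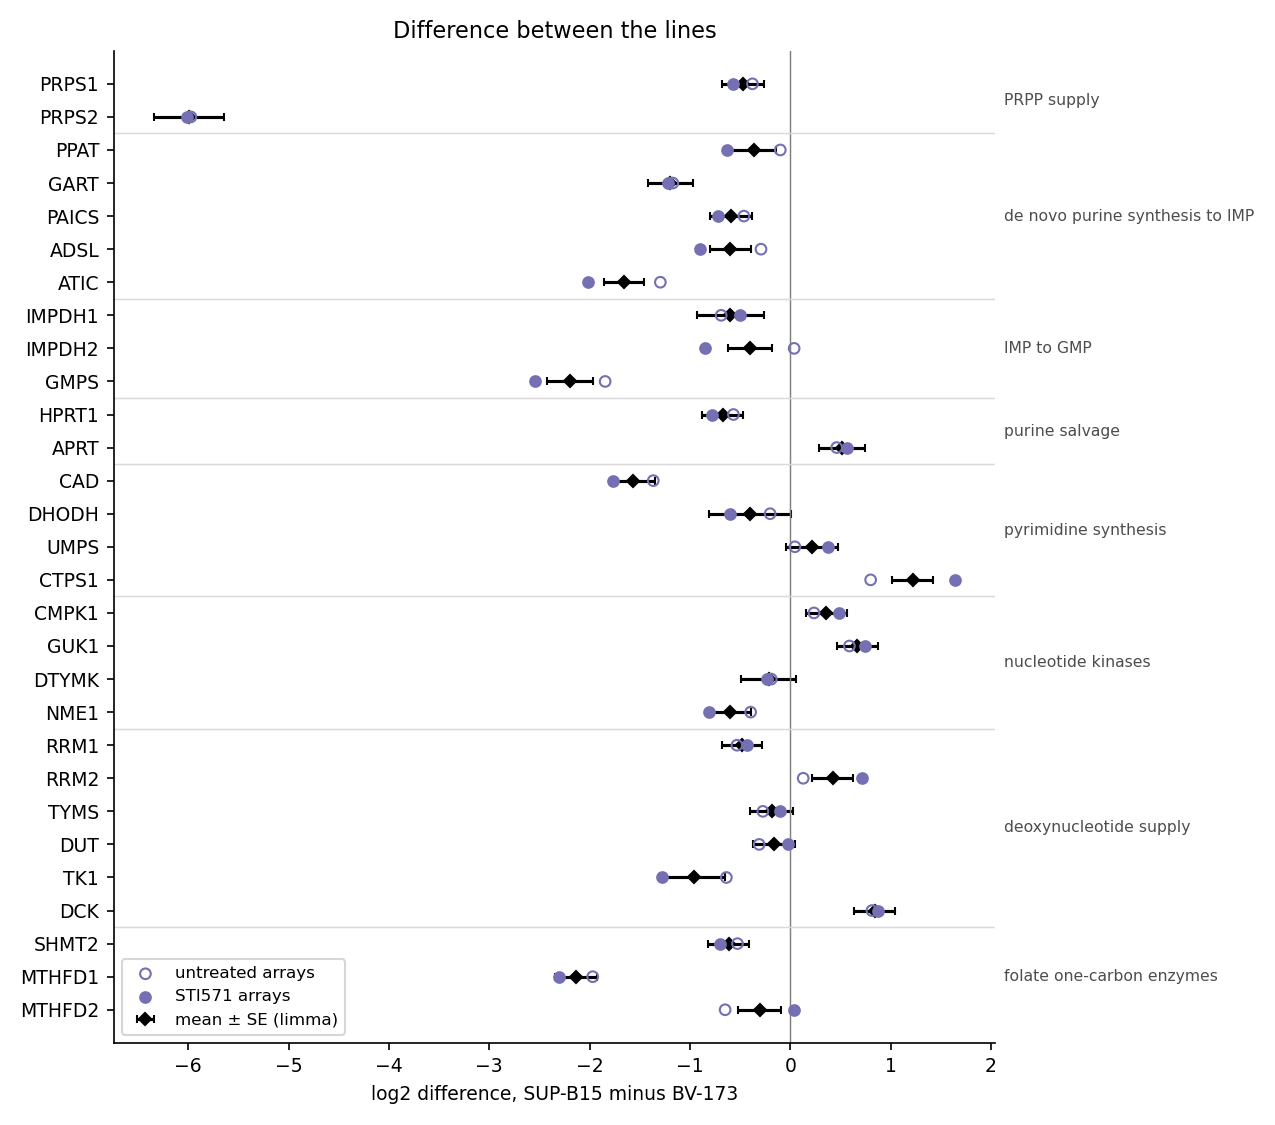
Log2 difference of SUP-B15 minus BV-173 for each tested gene, between the untreated arrays (open circles) and the treated arrays (filled circles), with limma's mean and SE (diamonds and bars). PRPS2 lies near −6, GMPS and MTHFD1 near −2, and of the genes to the right of 0 limma called CTPS1, DCK and GUK1.

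PRPS2 was the member furthest apart. Its untreated signals, 2420 in BV-173 and 14.4 in SUP-B15, are 62.8-fold apart on the scale with 24.5 added; since it passed the filter only through BV-173, it could hardly fail to differ. That untreated difference, −5.97, depends on the added value: it was −7.30 with 1 added and −4.49 with 98. PRPS1, its relative, differed by −0.47 (limma adjusted p = 0.0705). GMPS was 3.59-fold higher in untreated BV-173, at 1837 against 494, and MTHFD1 3.91-fold, at 5729 against 1445. ATIC (6352 against 2574), CAD (2286 against 872) and GART (1981 against 866) were 2.45-fold, 2.58-fold and 2.25-fold higher there. For each of these 6 genes, by the probe set used, both BV-173 arrays lay above both SUP-B15 arrays. The other probe sets of GART above the filter were closer between the untreated lines: 1115.8 against 855.8, 511.7 against 334.6 and 511.1 against 320. With probe sets averaged, the difference of GART was −0.80 in place of −1.19 (limma adjusted p = 0.0112). TK1, HPRT1, SHMT2, NME1, ADSL and PAICS were called with smaller differences of −0.96 to −0.59, and the arrays of the lines overlapped for NME1 and PAICS. None of these 6 was called without the intensity trend (limma adjusted p = 0.119 to 0.246) or without the treatment term (0.0639 to 0.244). ADSL was not called when probe sets were averaged (0.129), nor PAICS with gene-specific probe sets alone (0.625). MYC, for comparison, differed by −2.43 in the same direction, which was not tested as a source of these values.

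Higher in SUP-B15 were CTPS1, DCK and GUK1. CTPS1 was at 3370.1 against 1924 untreated and at 5066 against 1606 treated, a mean difference of 1.22 (SE 0.20, limma adjusted p = 4.26e-08). DCK differed by 0.84 (limma adjusted p = 0.000308) and GUK1 by 0.67 (0.00612). In all 3 genes both SUP-B15 arrays were above both BV-173 arrays. GUK1 was no longer called under a common median (limma adjusted p = 0.112) or when probe sets were averaged (0.365), nor without the treatment term (0.0912). Without the intensity trend GMPS, MTHFD1, ATIC and CAD were the members still called, beside PRPS2, which passed the filter only through BV-173.

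**Figure D4:**
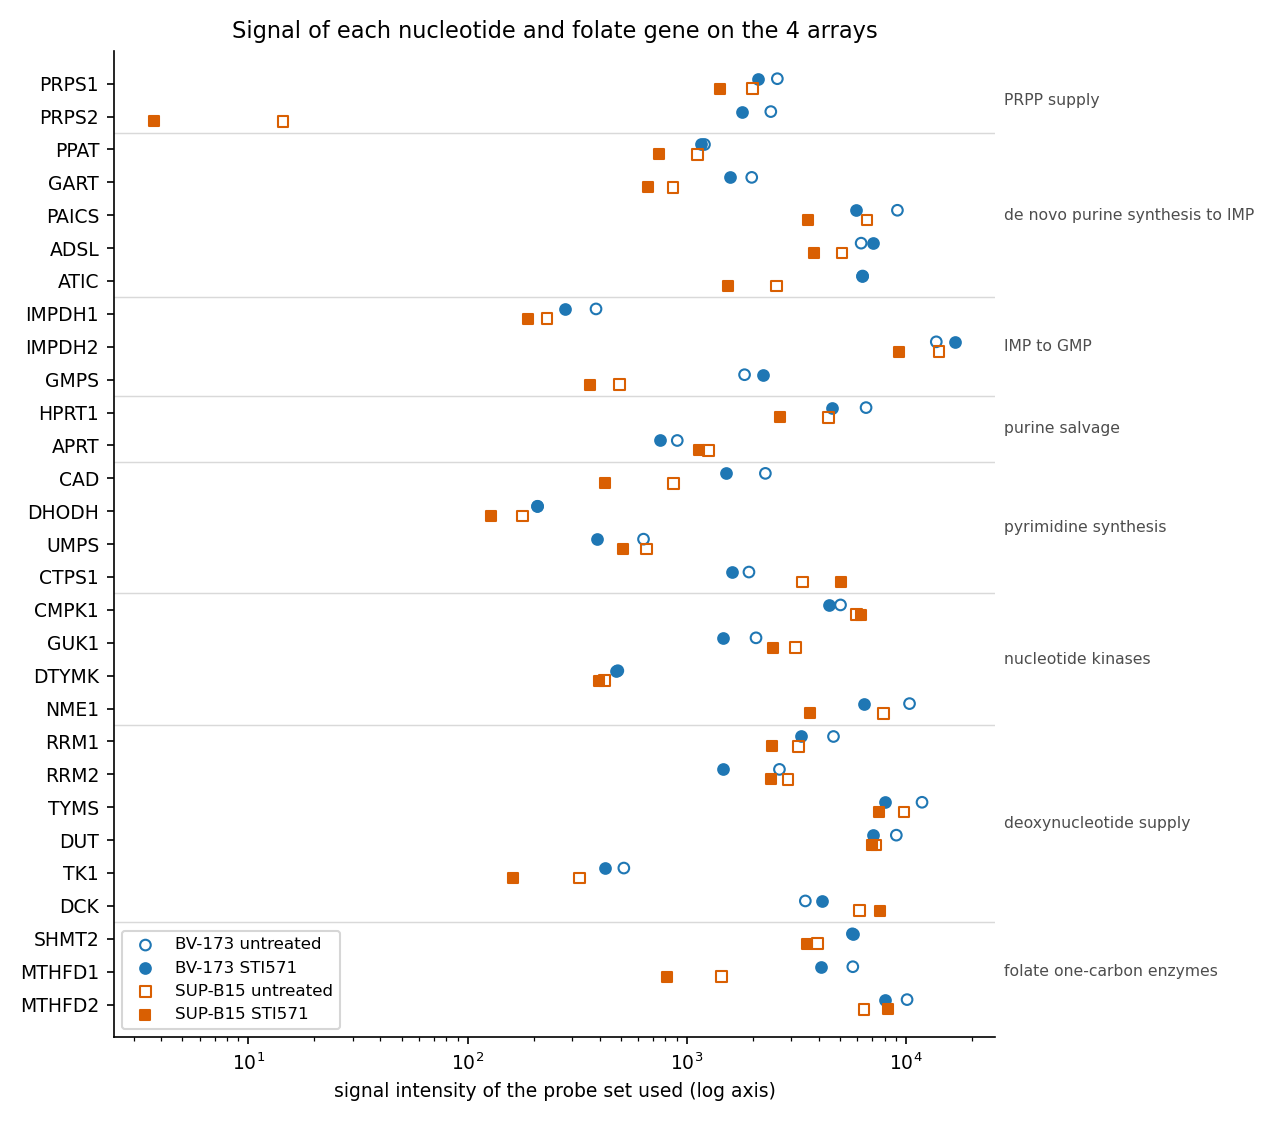
Signal intensity (log axis) of the probe set used for each tested gene on the 4 arrays, with open symbols for untreated and filled symbols for STI571, circles for BV-173 and squares for SUP-B15. Signals of different probe sets are not comparable with each other; within a row, PRPS2 has the widest gap between the lines.

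The rest of these pathways was read from 4 lists of other genes, 63 in all, of which 40 were tested; 5 were called lower, 1 higher and 34 neither, where 1.63% of all genes were called lower and 1.43% higher. Their median mean change was −0.08, nearer to that of all genes (0.02) than to the members' −0.35. Of 13 other purine genes, 2 were called lower and 1 higher. PFAS, another enzyme of the route to IMP, went in BV-173 from 2311 to 1419, in SUP-B15 from 1348 to 709. Its mean change of −0.80 was called (limma adjusted p = 0.0122), a call that ended with a common median (0.109). AK4, a mitochondrial adenylate kinase, had −0.83 and −0.68 (limma adjusted p = 0.0449), and its call ended under 5 scaling, filter or probe set choices (0.0553 to 0.351). ADA, the deaminase of adenosine and deoxyadenosine whose loss causes immunodeficiency, went the other way. It rose in BV-173 from 2321 to 3835, in SUP-B15 from 2596 to 5145.5, so both treated arrays exceeded both untreated ones (mean 0.85, SE 0.20, limma adjusted p = 0.00247). Its second probe set gave 0.87 and 0.93. AMPD3, an AMP deaminase, had 1.15 and 0.37 from low signals (limma adjusted p = 0.505).

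None of 9 other pyrimidine and deoxynucleotide genes was called by limma, and those named by the rule went both ways. NME4, a mitochondrial relative of NME1, had −0.51 and −0.92 (limma adjusted p = 0.0679), and DCTPP1, which removes excess dCTP, −0.76 and −0.47 (0.0815); both were called with the filter at the 75th percentile (0.0454). DCTD, the dCMP deaminase, had −0.79 and −0.53 (limma adjusted p = 0.0985), while its other probe sets stayed within 0.26 of 0. NT5C, a nucleotidase, had 0.91 and 0.42 from signals of 64.1 to 164. Of 9 other folate genes, 1 was called (1.63% of all genes were called lower and 1.43% higher). SLC19A1, the reduced folate carrier through which methotrexate enters cells, was called lower, in BV-173 from 1499 to 833, in SUP-B15 from 589 to 278 (mean −0.92, SE 0.24, limma adjusted p = 0.00899). It was no longer called under a common median (0.0565) or when probe sets were averaged (0.13). FPGS, which adds glutamates that keep folates in the cell, had 0.73 and 0.55 (limma adjusted p = 0.155). FOLR1, a folate receptor, had 0.63 and 0.29 from signals of 3128 to 4854. A second FOLR1 probe set, under the filter, gave signals of only 21.4 to 109. ALDH1L1, a formyl folate dehydrogenase, had −0.69 and 0.00 from signals of 58 to 109, and its other probe set read 0.17 and −1.10.

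**Figure D5:**
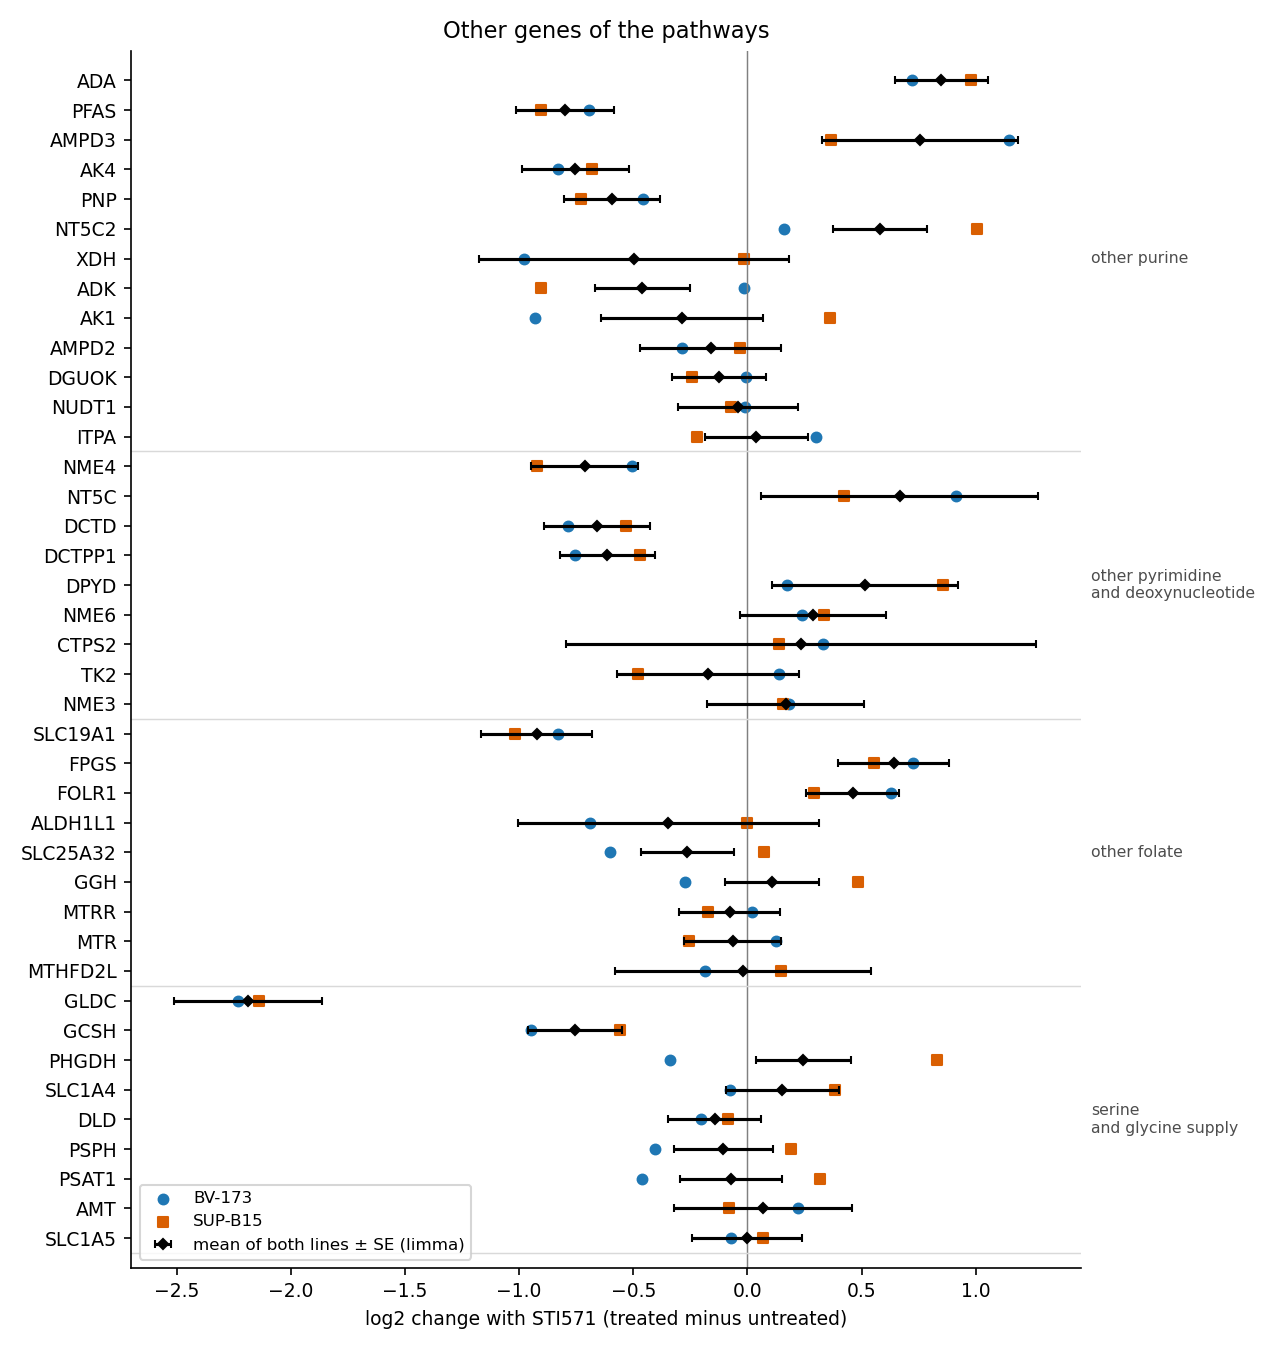
Log2 change with STI571 of the 40 tested genes from the 4 lists of other pathway genes, in BV-173 (circles) and SUP-B15 (squares), with the mean and SE from limma (diamonds and bars). GLDC lies furthest left, near −2.2 in both lines. ADA, FPGS and NT5C lie right of 0 in both, and PHGDH, PSAT1 and PSPH are among 14 genes with the lines on opposite sides.

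Among 9 genes of serine and glycine supply, 2 were called lower (1.63% of all genes). Both belong to the glycine cleavage system, a mitochondrial source of folate carbon. GLDC, its decarboxylase, went in BV-173 from 1079.6 to 210.5, in SUP-B15 from 372 to 65.4, and GCSH, its carrier protein, from 4320 to 2224 and from 2344 to 1582. The mean changes were −2.19 (SE 0.32, limma adjusted p = 9.43e-09) and −0.75 (SE 0.21, limma adjusted p = 0.0129). GCSH was no longer called under a common median (0.0888) or when probe sets were averaged (0.0602). The remaining parts, AMT and DLD, were not called, with mean changes of 0.07 and −0.14. PHGDH, the first enzyme of serine synthesis, went in BV-173 from 3305 to 2609, in SUP-B15 from 877 to 1577. SLC1A4, a carrier of neutral amino acids such as serine, had −0.08 and 0.38 (limma adjusted p = 0.904). PSAT1 and PSPH, the steps after PHGDH, singled out after their values were seen, also had lower signals in BV-173 (−0.46 and −0.40) and higher ones in SUP-B15 (0.32 and 0.19), the pattern of MTHFD2 and CTPS1. None of PHGDH, PSAT1 and PSPH was called by limma (adjusted p = 0.755 to 0.96). These signs held under quantile normalization and a common median. ATF4, a factor known to drive serine and mitochondrial folate genes, had changes of 0.47 and 0.66 in the lines (limma adjusted p = 0.184), called with quantile normalization (0.0219); its part in these values was not tested.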

How the data were processed

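RNA from 4 cultures was measured on oligonucleotide arrays. The authors deposited linear signal intensity for each probe set. The submitters' processing notes name GCOS 1.3; how probes were summarised is not given in the sources used here. In each deposited column the 2%-trimmed mean was 500.2, so arrays had been scaled alike. Detection calls were not used here. Probe sets with 1 gene symbol (19064 of 22277) were used on the scale log2(signal + 24.5), 24.5 being the 25th percentile of the deposited signals. Probe sets at or above their array's median on at least 1 array passed, and the brightest stood for a gene, leaving 7916 of 11963 genes. limma 3.58.1 (R 4.3.3) fitted cell line and treatment to all 4 arrays with an intensity trend (prior degrees of freedom infinite). Tests were two-sided, with Benjamini-Hochberg adjustment at 0.05. The fit was also run on simulated data, drawn with its own errors and with equal effects in both lines. That run cannot show whether its error model holds for these arrays. The cell line pairs the arrays, as the labels give it. Responses of single lines have no test. Promoter windows are RefSeq's (GRCh38.p14); 29 of 32 symbols matched. The members and lists were chosen with earlier results of these data known. All members were named, with up to 4 genes per other list by largest mean change, MYC, E2F1 and ATF4. Alternatives were other normalization, pseudocounts, filters, probe set choices, priors and no block.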

Additional observations from a re-analysis of the deposited data

Results flagged for a closer look

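The 2 results listed here are probe sets whose signal moved in opposite directions in the lines, by at least 0.5 on the log2 scale in each. The difference between the lines was not tested, since each group held 1 array. The dimmest probe set of DHODH went in BV-173 from 107.7 to 60.7, in SUP-B15 from 8.4 to 81.4, a SUP-B15 change that exceeded that of BV-173 by 2.32. Another probe set of TYMS went in BV-173 from 57.2 to 136, in SUP-B15 from 80.7 to 38.1, a difference of −1.73. Both were dim next to the probe sets used for these genes, and each reached its array's median on 1 array only.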

How the results depend on the processing

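For STI571, members called lower numbered 3 in the reported analysis, 5 with the filter at the 75th percentile, and 0 without the intensity trend (669 genes, 3 of them members, at an unadjusted p under 0.05) or without the cell line as a replicate block (73 genes, 0 members). Those 2 settings called 0 genes either way over all features in place of 129 lower and 113 higher. A common median left 61 higher, the mean of probe sets 61 lower and 55 higher, and gene-specific probe sets, with fewer genes tested, 74 lower and 63 higher. Members called between the lines were 12 lower in SUP-B15 and 3 higher; without the trend 5 and 0, and without the treatment term 6 lower. Over all genes 1146 were lower and 1150.0 higher; gene-specific probe sets gave 655 and 690, no trend 244 and 434, and no treatment term 681 lower. Members 2-fold lower in BV-173 were 1 in place of 0 with a common median or gene-specific probe sets, and 5 at 1.5-fold. In SUP-B15 they were 2 in place of 1 with quantile normalization or the mean of probe sets, 3 with a pseudocount of 1, 8 at 1.5-fold and 0 at 3-fold.

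A common median moved the median of all genes in BV-173 from 0.05 to −0.11, in SUP-B15 from −0.01 to 0.09; 20 members were then lower in both lines, and 19 to 22 under the other settings that tested at least 27 members. Mean changes near 0 reversed: MTHFD2 to −0.019 with a common median, DHODH to 0.12, SHMT2 to 0.059 and SLC1A4 to −0.14 with the mean of probe sets, and SHMT2 to 0.17 with gene-specific probe sets. The line difference of RRM2 became −0.42 with the mean of probe sets. The cause of these changes was not tested. No replicates exist to be left out, and without detection calls dim signals have no stated background.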
